A study of Mus musculus with 12 samples.

Results

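The 10 genes described here encode receptors and signalling proteins by which common lymphoid progenitors (CLPs) are sorted or by which they respond to cytokines: Il7r, Il2rg, Crlf2, Flt3, Kit, Jak1, Jak3, Stat5b, Ly6a and Ly6d. They were chosen by name, found by symbol in the TPM table of 47643 genes, and all 10 passed the filter that left 14479 genes for testing. Poly(A)+ RNA was sequenced from CLPs sorted from the bone marrow of adult, age-matched male mice, with 4 libraries in each of 3 groups. The WT group carried the intact Firre locus, which produces a long non-coding RNA. The KO group (∆Firre) carried a germline deletion of the whole gene body and its promoter. The Rescue group carried the same deletion with a Firre cDNA under a tet-responsive element and a constitutive CAG-driven rtTA3 activator, and was fed doxycycline (dox) chow. Rescue therefore differed from KO by the transgenes, by the diet as far as the sources used here state it, and by its own range of library numbers, and these cannot be told apart. The comparisons ask whether loss of Firre, or Firre RNA from the transgene, altered the level of these genes.

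Interleukin-7 binds the IL-7Rα chain, encoded by Il7r, together with the common γ chain, encoded by Il2rg. Jak1 associates with IL-7Rα and Jak3 with the γ chain, and the kinases phosphorylate STAT5, which enters the nucleus and drives survival genes of early lymphoid cells. IL-7Rα also pairs with the product of Crlf2 to form the receptor of the cytokine TSLP. Flt3 and Kit are receptor tyrosine kinases for FLT3 ligand and stem cell factor, and Ly6a (Sca-1) and Ly6d are small surface proteins anchored to the membrane by a lipid. In CLPs, Ly6d protein marks the cells already directed to the B lineage. The sort took lineage-negative cells that were positive for IL-7Rα and low for c-Kit and Sca-1, so the proteins of Il7r, Kit and Ly6a were used to choose the cells, and their RNA was read within that gate.

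Firre itself checked the labels. Its level was 26.4, 31.6, 25.2 and 30.2 TPM in the WT libraries (replicates 6, 8, 10 and 11), 0 in all 4 KO libraries, and 59.9, 135, 63.0 and 174 TPM in the Rescue libraries (replicates 1 to 4). Reads per library, recovered from the spacing of the TPM values, ranged from 10708438 to 17709193 in WT, from 13977788 to 17099383 in KO and from 25084247 to 31790858 in Rescue. For the 10 genes this came to between 102 reads (Ly6a, in WT) and 46315 reads (Flt3, in Rescue) in a library. Genes above 0 TPM in a library numbered 15472 to 19877 in WT, 17910 to 19098 in KO and 15140 to 16835 in Rescue. Rescue libraries thus had more reads than KO libraries and fewer genes above 0, and the cause was not tested. The median log2 difference over all genes tested was -0.06 in KO against WT, -0.16 in Rescue against KO and -0.21 in Rescue against WT. In Rescue against KO the log2 difference rose with the GC content of the transcript across 11713 genes (Spearman rho 0.50, a description, since genes are not independent replicates). The source of that relation was not tested, and a correction for GC content, chosen after the data were seen, is given below for those of the 10 genes whose call or sign it changes, and for the lists and ratios as counts or differences. Other values are without the correction.

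The 250 bases before the start annotated for each promoter are shown for the 3 chains that make up the IL-7 and TSLP receptors (RefSeq, GRCm38.p6, minus strand for each gene, 5′ to 3′). They are shown because the data below compare the levels of these chains. Capitals mark a match to TTCNNNGAA, the letters that STAT dimers bind, which read the same on both strands. The stretches lie at chr15:9529877-9530126, chrX:101268256-101268505 and chr5:109558994-109559243. The annotated genes have their 5′ ends at chr15:9529941 (Il7r), chrX:101268255 (Il2rg) and chr5:109559128 (Crlf2). The stretches of Il7r and Crlf2 therefore overlap the annotated gene in part, and that of Il2rg does not.

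Il7r: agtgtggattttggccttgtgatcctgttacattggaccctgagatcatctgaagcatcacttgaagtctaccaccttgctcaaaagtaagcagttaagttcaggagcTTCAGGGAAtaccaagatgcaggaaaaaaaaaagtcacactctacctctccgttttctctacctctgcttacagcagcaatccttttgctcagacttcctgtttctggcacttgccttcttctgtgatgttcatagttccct

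Il2rg: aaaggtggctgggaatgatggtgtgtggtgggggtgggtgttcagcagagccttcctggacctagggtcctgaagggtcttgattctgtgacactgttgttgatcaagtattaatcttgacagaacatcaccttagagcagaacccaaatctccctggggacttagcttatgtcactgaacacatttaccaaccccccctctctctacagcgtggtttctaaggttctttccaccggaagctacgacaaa

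Crlf2: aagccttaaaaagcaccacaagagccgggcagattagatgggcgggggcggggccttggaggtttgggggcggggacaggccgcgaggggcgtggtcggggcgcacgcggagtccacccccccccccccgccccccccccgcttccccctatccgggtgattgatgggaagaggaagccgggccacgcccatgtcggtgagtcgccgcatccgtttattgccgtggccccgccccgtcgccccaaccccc

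The letters TTCNNNGAA stood in 1 place before Il7r and not in the stretches of Il2rg and Crlf2. That place starts 142 bases before the start annotated for the promoter, and closer to the 5′ end of the annotated gene at chr15:9529941. The letters were present in 2726 of 32851 promoters of 300 bases in the table (8.30%). Among the 8 of the 10 genes with a promoter in the table, Il7r was the only one with the match. A match of letters is a description and not a binding site.

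In WT, the level per transcript length was led by Flt3 with 570 ± 77.8 TPM (SD, n = 4 here and below), Ly6d with 528 ± 54.2 TPM and Il7r with 424 ± 31.2 TPM. Flt3 and Ly6d overlapped, and every WT library had more Ly6d than the highest Il7r library had Il7r. Jak1 followed with 202 ± 17.6 TPM and Il2rg with 131 ± 13.9 TPM. Stat5b (81.5 ± 7.26 TPM) and Kit (70.8 ± 10.1 TPM) overlapped each other. Ly6a (34.3 ± 7.26 TPM), Jak3 (34.1 ± 3.62 TPM) and Crlf2 (34.0 ± 8.44 TPM) could not be put in an order. All 10 genes lay in the upper part of the range, from Crlf2, above 62.1% of the genes tested, to Flt3, above 98.7%. In KO the order was the same except that Kit (75.1 TPM) came above Stat5b (69.3 TPM), with overlapping libraries. In Rescue, Ly6d stood first with 1258 ± 216 TPM, and every Rescue library had more Ly6d than any had Flt3.

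**Figure D1:**
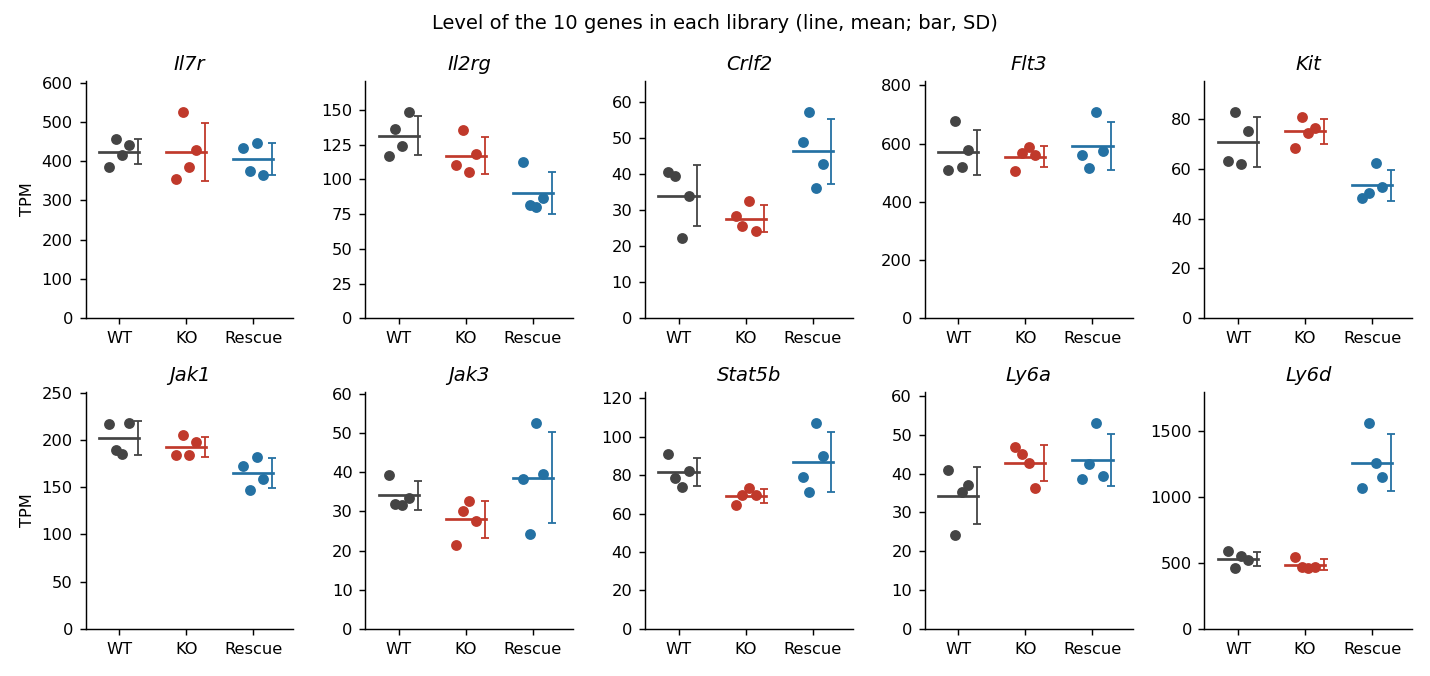
Level of the 10 genes in TPM (vertical axes from 0) in each of the 4 WT, 4 KO and 4 Rescue libraries; points are libraries, lines are means and bars are SD. Ly6d sits between 1065 and 1560 TPM in Rescue and between 457 and 586 TPM in the other 8 libraries, while Il7r and Flt3 overlap in all 3 groups.

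None of the 10 genes was called in KO against WT. Fold changes are differences of log2(TPM + 1), tested with limma over all genes, and a gene is called where its p, adjusted by Benjamini and Hochberg's method, is at most 0.1. Here 3 of 14479 genes (0.0207%) were called, 2 higher (0.0138%) and 1 lower (0.00691%), and 767 had an unadjusted p below 0.05. For Il7r the difference was -0.02 ± 0.12 (SE), with a 95% interval from -0.27 to 0.24, and for Flt3 it was -0.03 ± 0.11, with an interval from -0.27 to 0.21. Among the 10 genes the intervals reached farthest from 0 for Jak3 (-0.73 to 0.15), Crlf2 (-0.68 to 0.16) and Ly6a (-0.03 to 0.68), so these data bound the difference least closely for those genes.

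Stat5b, which encodes a transcription factor of the IL-7 pathway, was the 1 gene of the 10 whose KO and WT libraries did not overlap. Its level was 91.1, 78.7, 73.8 and 82.2 TPM in WT and 64.5, 69.5, 73.4 and 69.7 TPM in KO (replicates 8, 9, 11 and 12). The highest KO library was just below the lowest WT library, and the log2 difference of -0.23 ± 0.12 did not pass the test (limma, adjusted p = 0.934). Libraries of KO and WT did not overlap at 5.33% of all genes tested, 0.843% with KO higher and 4.49% with KO lower. Within the 2 ranges of library numbers that each held 2 WT and 2 KO libraries, the Stat5b difference was -0.22 and -0.23. Over these ranges, in the same order, the sign held for Crlf2 (-0.26 and -0.26), Jak3 (-0.29 and -0.29) and Ly6a (0.57 and 0.08) as well. It changed between them for the other 6 of the 10 genes, Il7r (-0.28 and 0.25), Flt3 (-0.20 and 0.14), Kit (-0.14 and 0.33), Ly6d (0.04 and -0.28), Il2rg (-0.40 and 0.07) and Jak1 (-0.14 and 0.01). Its neighbour Stat5a, which encodes a near-identical protein, had 28.3 ± 2.04 TPM in WT and 24.6 ± 4.50 TPM in KO (log2 difference -0.21 ± 0.15, adjusted p = 0.982), and how reads that fit both genes were counted is not given in the sources used here.

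Ly6a, the gene of the sort marker Sca-1, had a KO against WT difference of 0.33 ± 0.16 (adjusted p = 0.929, limma), and of 0.17 without WT replicate 8. It was at 41.0, 24.1, 35.3 and 37.0 TPM in WT and at 46.8, 44.9, 42.8 and 36.2 TPM in KO. The lowest WT library stood well under the rest, and 3 of 4 KO libraries lay above every WT library. Jak3 (-0.29 ± 0.20), Crlf2 (-0.26 ± 0.19), Il2rg (-0.17 ± 0.12), Ly6d (-0.12 ± 0.12), Jak1 (-0.07 ± 0.09) and Kit (0.09 ± 0.12) had adjusted p-values between 0.971 and 1. The Crlf2 difference was -0.17 without WT replicate 6 and -0.45 without WT replicate 10, and that of Jak3 was -0.17 without KO replicate 8. With 1 library left out in turn, Kit ran from 0.033 to 0.171, Jak1 from -0.109 to -0.029, Ly6d from -0.189 to -0.071 and Il2rg from -0.236 to -0.105. After correction for GC content the difference was -0.085 for Jak3 and 0.030 for Kit.

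Rescue differed from KO at 6 of the 10 genes, at a background of 27.9% of all genes called (8.58% higher and 19.3% lower). Ly6d, Crlf2 and Stat5b were higher in Rescue, and Kit, Il2rg and Jak1 were lower. Libraries of Rescue and KO did not overlap for Ly6d, Crlf2, Kit and Jak1, 4 of the 10 genes, against 21.9% of all genes (6.31% with Rescue higher and 15.6% with Rescue lower). In Rescue against WT, 4 of the 10 were called, at a background of 24.3% (4.82% higher and 19.4% lower): Ly6d was higher, and Kit, Il2rg and Jak1 were lower. Libraries of these groups did not overlap for Ly6d, Il2rg and Jak1, against 18.0% of all genes (3.55% with Rescue higher and 14.5% with Rescue lower). Under the GC correction, 2 of the 10 were called against KO (Ly6d higher and Kit lower), at a background of 16.5% (6.22% higher and 10.3% lower), and 2 against WT (Ly6d higher and Il2rg lower), at 20.5% (4.42% higher and 16.1% lower). Both comparisons use the same Rescue libraries, so their calls are not independent. In bulk RNA, fewer cells of a type and less RNA per cell cannot be told apart.

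**Figure D2:**
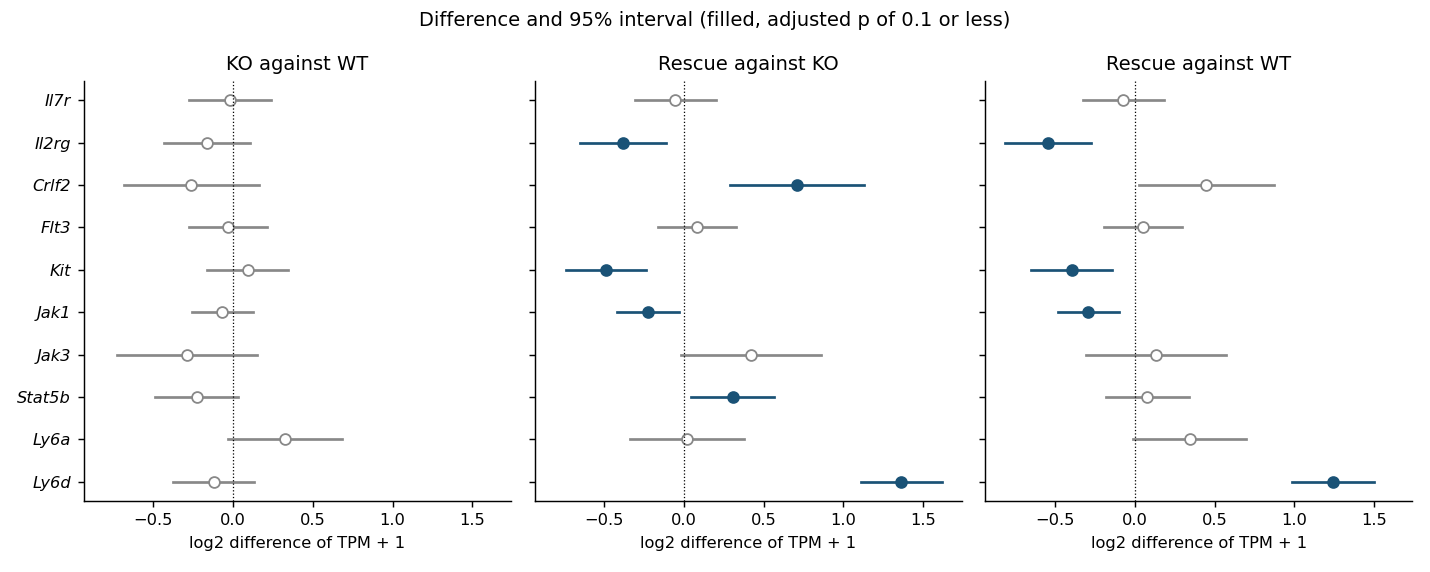
Difference in log2(TPM + 1) (horizontal axes) of each gene in the 3 comparisons, with 95% intervals from limma; filled points passed an adjusted p of 0.1. No point is filled in KO against WT, 6 are filled in Rescue against KO and 4 in Rescue against WT, with Ly6d at 1.36 and 1.24.

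Ly6d showed the largest difference among the 10 genes in both Rescue comparisons. It was at 586, 457, 549 and 521 TPM in WT, at 547, 466, 458 and 466 TPM in KO, and at 1065, 1560, 1257 and 1151 TPM in Rescue. The lowest Rescue library was above the highest of the other 8 libraries. The log2 difference was 1.36 ± 0.12 against KO (95% interval 1.11 to 1.62, adjusted p = 6.03e-05, limma) and 1.24 ± 0.12 against WT (adjusted p = 9.32e-05), which is 2.57-fold and 2.36-fold. After correction for GC content the differences were 1.20 and 1.14, and both were still called. The test called Ly6d in all 20 alternatives run for each of these comparisons.

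Genes that mark pro-B cells moved with Ly6d. Of all genes tested, 8.58% were called higher in Rescue than in KO and 4.82% higher than in WT. All 9 of the 9 genes read (Cd79a, Cd79b, Igll1, Vpreb1, Vpreb2, Vpreb3, Ebf1, Pax5 and Blnk) were higher in Rescue than in KO, with a median log2 difference of 1.46 against -0.16 over all genes tested, and 8 of 9 were higher than in WT. Their summed level was 293 to 544 TPM in WT, 386 to 492 TPM in KO and 1065 to 1671 TPM in Rescue, and none of the 9 was at 0 throughout a group. Vpreb1, which encodes part of the surrogate light chain of the pre-B cell receptor, had means of 40.8 TPM in WT, 35.4 TPM in KO and 207 TPM in Rescue. Among other genes of lymphoid progenitors, Rag1, which encodes part of the recombinase of antigen receptor genes, was also called higher in Rescue than in KO (191 and 312 TPM), while Dntt, Rag2, Cd27, Cd93 and Notch1 were not called. After correction for GC content 8 of the 9 pro-B genes were still called higher in Rescue than in KO, beside 6.22% of 11713 genes called higher under it, and Vpreb2 had 1.19 (adjusted p = 0.115, limma; 1.45 before). Rag1, Dntt and Rag2 were called higher under it too. The lineage antibodies that the study lists for bone marrow staining include one to B220, a surface protein of pro-B cells. RNA of the 9 genes was read in the sorted cells at the levels given above. The part of pro-B cells in the Ly6d result was not tested.

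Kit, the stem cell factor receptor, was lower in Rescue. It was at 63.1, 82.9, 61.9 and 75.1 TPM in WT, at 68.6, 80.9, 74.3 and 76.5 TPM in KO, and at 48.2, 50.2, 62.3 and 52.9 TPM in Rescue. All Rescue libraries lay below all KO libraries, and the highest Rescue library overlapped the lowest WT library. Its log2 difference was -0.49 ± 0.12 against KO (95% interval -0.74 to -0.24, adjusted p = 0.0137, limma) and -0.40 ± 0.12 against WT (-0.65 to -0.14, adjusted p = 0.0373). Against KO the call held in all 20 alternatives, with -0.35 after correction for GC content (adjusted p = 0.0901). Against WT the call was lost after rescaling by the median ratio (-0.21, adjusted p = 0.224), after quantile normalization (-0.26), in limma-voom on the recovered reads (-0.20) and after correction for GC content (-0.32, adjusted p = 0.106).

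Genes of basophils and mast cells were far lower in Rescue. Of all genes tested, 19.3% were called lower in Rescue than in KO and 19.4% lower than in WT. Of 7 listed genes, 6 were tested and all 6 were lower than in KO and than in WT, and the mast cell protease gene Cma1 was at 0 in every library. Their summed level was 1052 to 9045 TPM in WT, 2918 to 4291 TPM in KO and 64.0 to 142 TPM in Rescue. Prss34, a basophil protease gene, was at 448 to 4026 TPM in WT, 1372 to 1939 TPM in KO and 0 to 23.8 TPM in Rescue. Of the stem and multipotent progenitor genes, Hlf and Cd34 were lower in Rescue than in KO among 4 tested. The summed level of that list was 254 to 307 TPM in WT, 255 to 283 TPM in KO and 195 to 222 TPM in Rescue. Procr, which did not pass the filter, was at 0 in Rescue and averaged 0.34 TPM in WT and 0.46 TPM in KO. After correction for GC content all 6 basophil and mast cell genes and Hlf were still called lower in Rescue than in KO. Under it 10.3% of 11713 genes were called lower, and Cd34 had -0.19 and was not called. The gate took cells positive for IL-7Rα and low for c-Kit, and the lineage antibodies listed for bone marrow staining include one to CD11b. RNA of these marker genes was read within that gate at the levels given above. The part of basophils, mast cells and stem cells in the Kit result was not tested.

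**Figure D3:**
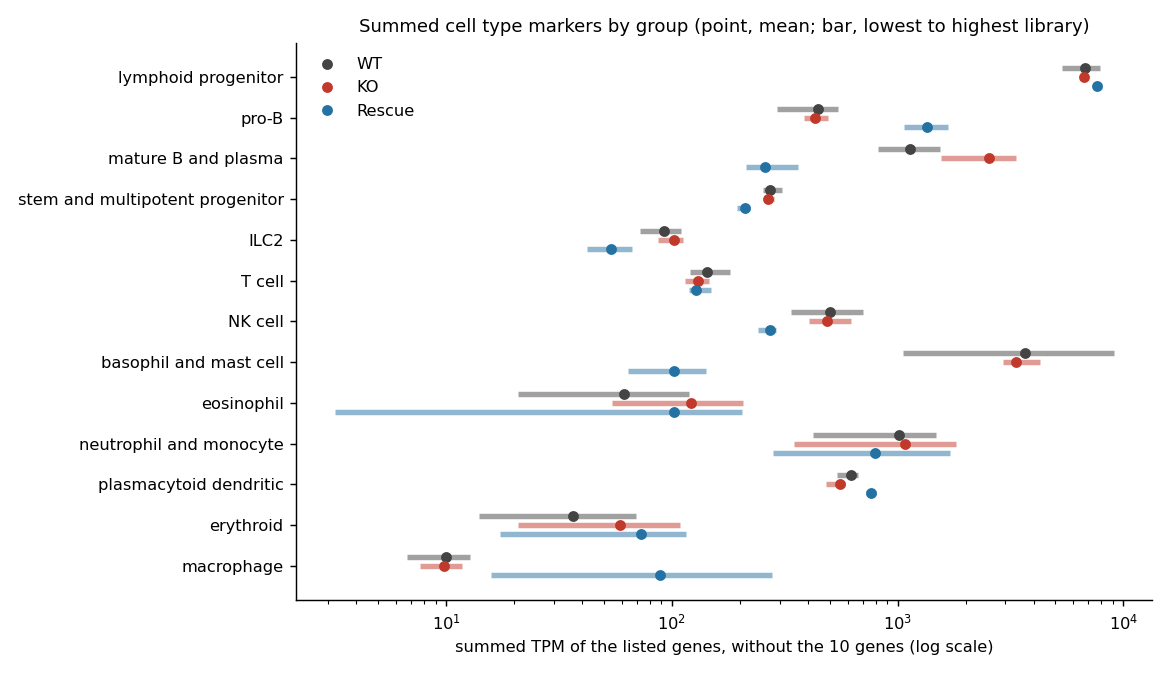
Summed TPM (log axis) of cell type marker lists, with the 10 genes left out; points are group means over 4 libraries and bars run from the lowest to the highest library. The Rescue bars lie above the other groups for pro-B genes (1065 to 1671 TPM) and below them for basophil and mast cell genes (64.0 to 142 TPM).

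Il7r and Flt3, the receptors that define the progenitor, were not called in any comparison. Il7r was at 385, 456, 415 and 441 TPM in WT, at 353, 525, 384 and 429 TPM in KO, and at 434, 375, 445 and 363 TPM in Rescue. The 3 groups overlapped, and KO held both the highest and the lowest library. The log2 difference of Rescue was -0.05 ± 0.12 against KO (95% interval -0.31 to 0.20) and -0.07 ± 0.12 against WT (-0.33 to 0.18), and its sign turned with rescaling by the median ratio (0.07 and 0.12) and with correction for GC content (0.23 and 0.12). Il7r had a transcript of low GC content, 40.8%.

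Flt3 was at 508, 677, 518 and 578 TPM in WT, at 506, 568, 588 and 559 TPM in KO, and at 563, 517, 709 and 576 TPM in Rescue. The groups overlapped. The log2 difference of Rescue was 0.08 ± 0.11 against KO (95% interval -0.16 to 0.32) and 0.05 ± 0.11 against WT (-0.19 to 0.29). Of the alternatives, only limma-voom on the recovered reads called it, against WT (0.25, adjusted p = 0.0690). Against KO the value there was 0.20 (adjusted p = 0.102). A first limma-voom run, with trimmed-mean scaling factors, called Flt3 against KO as well.

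Over the 12 libraries, the 5 genes most like Il7r by Pearson r of log2(TPM + 1) were Zfyve1 (0.84), Ube2b (0.84), Smim14 (0.82), Mctp1 (0.81) and Tcf12 (0.81). The 5 most like Flt3 were Gstt3 (0.92), Trit1 (0.92), Sh3d21 (0.92), Irgq (0.91) and Fgd1 (0.91). These are the highest values among all genes tested and describe these libraries, which share 3 groups and differ in depth.

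Il2rg, which encodes the γ chain, was lower in Rescue. It was at 117, 136, 124 and 149 TPM in WT, at 110, 135, 105 and 118 TPM in KO, and at 113, 81.4, 80.3 and 86.5 TPM in Rescue. Rescue replicate 1 reached the KO range, and all 4 Rescue libraries lay below all WT libraries. In log2 units the difference was -0.38 ± 0.12 against KO (95% interval -0.65 to -0.11, adjusted p = 0.0507, limma) and -0.55 ± 0.12 against WT (-0.82 to -0.28, adjusted p = 0.0122). Against KO the call was lost in 9 of 20 alternatives, among them rescaling by the median ratio (-0.26, adjusted p = 0.186), correction for GC content (-0.26, adjusted p = 0.215) and leaving out KO replicate 9 (-0.31), KO replicate 12 (-0.37), Rescue replicate 2 (-0.34) or Rescue replicate 4 (-0.36). Against WT it was lost in 1 of 20, with -0.36 after rescaling by the median ratio (adjusted p = 0.1003, limma). A first limma-voom run with trimmed-mean scaling factors, not counted among the 20, did not call Il2rg against WT either.

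Crlf2, the TSLP receptor chain, was the 1 gene of the 10 with a called difference whose sign turned after correction for GC content. It was at 40.7, 39.4, 22.2 and 33.9 TPM in WT, at 28.3, 25.5, 32.5 and 24.2 TPM in KO, and at 48.9, 57.2, 36.1 and 42.7 TPM in Rescue. All Rescue libraries lay above all KO libraries and 3 of 4 above all WT libraries. Rescue differed by 0.71 ± 0.19 against KO (95% interval 0.29 to 1.13, adjusted p = 0.0246, limma) and 0.45 ± 0.19 against WT (adjusted p = 0.136). Its transcript had a GC content of 65.6%, the highest of the 10 genes, and after correction for GC content the differences were -0.12 (adjusted p = 0.730) and -0.11 (adjusted p = 0.728). Against WT it was called in 5 of 20 alternatives, among them rescaling by the median ratio (0.63, adjusted p = 0.0793) and the fit without Rescue replicate 3 (0.56), and without WT replicate 10 the difference was 0.26 (adjusted p = 0.325).

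Jak1, the kinase of the IL-7Rα chain, was at 216, 190, 185 and 218 TPM in WT, at 184, 205, 184 and 198 TPM in KO, and at 172, 147, 182 and 159 TPM in Rescue. All Rescue libraries lay below all others, by a narrow gap at Rescue replicate 3. The log2 difference was -0.22 ± 0.09 against KO (95% interval -0.42 to -0.03, adjusted p = 0.0964, limma) and -0.29 ± 0.09 against WT (-0.48 to -0.10, adjusted p = 0.0435). The call was lost in 16 of 20 alternatives against KO and in 7 of 20 against WT, and after rescaling by the median ratio the differences were -0.11 and -0.10. Leaving out any 1 of the 4 KO libraries or Rescue replicate 1, 2 or 4 ended the call against KO (-0.25 to -0.17), and leaving out WT replicate 6 or 11 ended that against WT (-0.26 and -0.25). After correction for GC content they were -0.07 (adjusted p = 0.738) and -0.20 (adjusted p = 0.207).

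Jak3, the kinase of the γ chain, was at 39.3, 31.8, 31.6 and 33.5 TPM in WT, at 21.5, 30.0, 32.7 and 27.5 TPM in KO, and at 38.2, 24.3, 52.7 and 39.4 TPM in Rescue. Rescue replicate 2 fell within the KO range and the other three lay above it. On the log2 scale Rescue differed by 0.42 ± 0.20 against KO (adjusted p = 0.166, limma) and 0.13 ± 0.20 against WT (adjusted p = 0.690). Against KO it was called in 5 of 20 alternatives, among them the fit without Rescue replicate 2 (0.62, adjusted p = 0.0247) and rescaling by the median ratio (0.54, adjusted p = 0.0458), while correction for GC content turned its sign (-0.12, adjusted p = 0.668). Without Rescue replicate 3 the difference was 0.26 (adjusted p = 0.350). The GC content of its transcript was 60.7%.

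Stat5b was at 78.8, 71.1, 107 and 90.1 TPM in Rescue, with replicate 2 inside the KO range and the other three above it. The log2 difference was 0.31 ± 0.12 against KO (95% interval 0.05 to 0.57, adjusted p = 0.0925, limma) and 0.08 ± 0.12 against WT (adjusted p = 0.693). The call against KO was lost in 11 of 20 alternatives, with 0.20 (adjusted p = 0.178) without Rescue replicate 3 and 0.25 (adjusted p = 0.193) after correction for GC content. Leaving out Rescue replicate 4 (0.28) or any 1 of the 4 KO libraries (0.27 to 0.33) ended it too. Against WT it was called in 2 of 20, after rescaling by the median ratio (0.27) and in limma-voom (0.27). Stat5a was at 25.9 ± 4.26 TPM in Rescue and was not called against KO (0.08 ± 0.15, adjusted p = 0.763).

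Ly6a was at 38.6, 42.5, 53.1 and 39.4 TPM in Rescue and overlapped both other groups. Its log2 difference was 0.02 ± 0.16 against KO (95% interval -0.34 to 0.37) and 0.34 ± 0.16 against WT (-0.01 to 0.70, adjusted p = 0.174, limma). Against WT it was called in 3 of 20 alternatives, the rescalings, with 0.53 (adjusted p = 0.0561) by the median ratio, and without WT replicate 8 the difference was 0.19 (adjusted p = 0.391). Of the other Ly6 family genes, 4 of 14 passed the filter (Ly6c2, Ly6e, Ly6k and Ly6g5b) and none was called in any comparison.

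**Figure D4:**
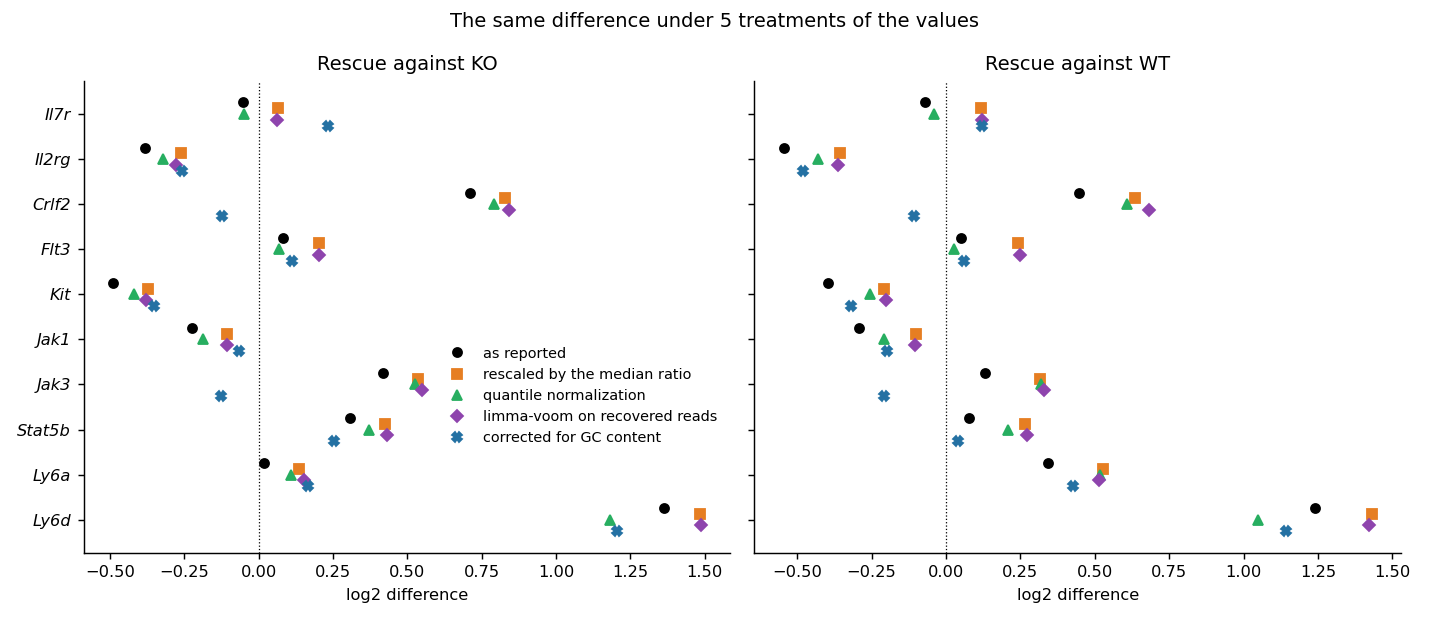
Log2 difference (horizontal axes) of each gene in Rescue against KO and Rescue against WT as reported and under 4 other treatments of the values. Crlf2 moves from 0.71 to -0.12 with correction for GC content in Rescue against KO, whereas Ly6d stays at or above 1.04 under every treatment plotted.

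Ratios between 2 of the genes within a library do not depend on the scaling of the library. For 6 ratios in 3 comparisons, 18 tests in all, a two-sided exact permutation test of the log2 ratio was run, whose smallest p with 4 against 4 libraries is 0.0286. Of the 18 tests 6 reached that p, which is 0.0857 after Benjamini-Hochberg adjustment over all 18 and passes the threshold of 0.1 used for genes. The adjusted value depends on how many tests reach the smallest p. Kit to Il7r was 0.111 to 0.145 in Rescue, 0.154 to 0.194 in KO and 0.149 to 0.182 in WT, with Rescue below both (exact permutation p = 0.0286, adjusted p = 0.0857 in each comparison). Ly6d to Il7r was 2.45 to 4.16 in Rescue, 0.888 to 1.55 in KO and 1.003 to 1.52 in WT (the same p in each comparison).

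Il2rg to Crlf2, the alternative partners of IL-7Rα, was 1.42 to 2.31 in Rescue, 3.23 to 5.31 in KO and 2.87 to 5.60 in WT (exact permutation p = 0.0286, adjusted p = 0.0857 in each comparison). The GC contents of these transcripts, 49.0% and 65.6%, differ, and after correction for GC content the log2 difference of this ratio was -0.14 against KO (exact permutation, adjusted p = 0.771) and -0.37 against WT (adjusted p = 0.421). Jak3 to Jak1 was 0.165 to 0.289 in Rescue and 0.117 to 0.178 in KO (exact permutation p = 0.0571, adjusted p = 0.147), and its difference turned to -0.059 after correction for GC content. For Kit to Il7r the corrected differences were -0.59 against KO and -0.44 against WT, and for Ly6d to Il7r 0.97 and 1.02, each with an adjusted p of 0.103 in the exact permutation test. Stat5b to Stat5a overlapped in all comparisons before the correction. After it the log2 ratio was 1.57 to 1.83 in Rescue and 1.09 to 1.41 in KO, without overlap, and the difference was 0.43 against 0.23 before (exact permutation p = 0.0286, adjusted p = 0.103). Flt3 to Il7r overlapped in all comparisons, and without the correction no ratio in KO against WT had a p below 0.143 in the exact permutation test.

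**Figure D5:**
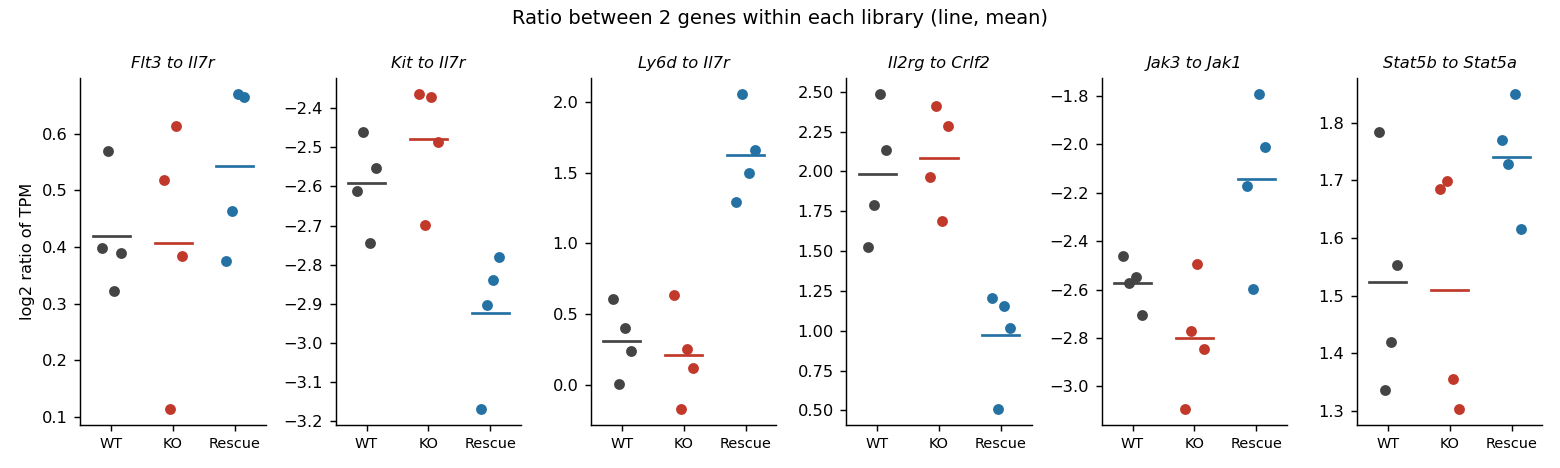
Log2 ratio of TPM (vertical axes, which do not start at 0) between 2 genes in each library, without correction for GC content, with group means as lines. The Rescue libraries stand apart from WT and KO for Kit to Il7r, Ly6d to Il7r and Il2rg to Crlf2, and overlap for Flt3 to Il7r and Stat5b to Stat5a.

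Other genes of the pathway were read from lists. In KO against WT no listed gene was called by limma on log2(TPM + 1). The study, which tested counts with DESeq2, called Ccnd3 lower in KO and Icos higher, and both are on lists read below. Here Ccnd3 was at 70.8 to 81.0 TPM in WT and 49.2 to 58.5 TPM in KO (log2 difference -0.43 ± 0.13, adjusted p = 0.889, limma). Icos was at 24.1 to 37.3 TPM in WT and 36.6 to 45.8 TPM in KO (0.48, adjusted p = 0.889, limma). In Rescue against KO the counts below stand beside 8.58% of all genes called higher and 19.3% called lower (27.9% in all), and a median log2 difference of -0.16. For the 11713 genes with a GC value these shares after correction were 6.22% and 10.3% (16.5% in all), and counts after it stand beside those. A list of 7 other receptor genes covered the γ-chain family and also held Il13ra1. In it Il9r, which encodes the interleukin-9 receptor, was higher in Rescue than in KO (7.01 and 0.93 TPM, log2 difference 2.04, adjusted p = 0.0035, limma). Il2rb (38.6 and 87.3 TPM, -1.24) and Il15ra (4.31 and 7.35 TPM, -0.66) were lower. The median difference of the list was -0.66. Of 7 other JAK and STAT genes read, Jak2 was lower (49.7 and 116 TPM, log2 difference -1.23, adjusted p = 0.0021, limma). The other 6 genes of that list were not called. With the correction Il9r, Il2rb and Jak2 were still called in the same direction and Il15ra, with -0.51, was not.

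Of 11 STAT5 response genes, 2 were higher and 4 lower in Rescue than in KO, with a median of -0.35. The D cyclin gene Ccnd3 was higher (112 and 55.3 TPM, log2 difference 0.98) and Bcl2l1 was higher (0.73), while the survival gene Bcl2 (81.7 and 154 TPM, -0.92), Osm (-0.94) and Pim2 (-0.50) were lower. In WT Ccnd3 was at 74.6 ± 4.61 TPM, and its difference in Rescue against WT was 0.55 (adjusted p = 0.0149, limma). Among 17 brakes on cytokine signalling, Ptpn1 was higher (0.31), and Socs4 (-0.74), Ptprc, the phosphatase CD45 (-0.57), and Pias1 (-0.35) were lower. Among 12 adaptors of Kit and Flt3, Inpp5d was higher (0.40), and Gab2 (-0.83), Sos1 (-0.66) and Pik3r1 (-0.41) led the 4 lower genes. The medians of these last lists were -0.14 and -0.11. After correction for GC content 1 STAT5 response gene was higher (Ccnd3, 0.57) and 4 were lower, with Bcl2l1 (0.45) and Ccnd2 (-0.30) no longer called and Pim1 now called (-0.82). Of the brakes Socs4 (-0.41), Ptprc (-0.30) and now Sh2b3 (-0.55) were lower, and Ptpn1 (0.056) and Pias1 (-0.13) were no longer called. Of the adaptors only Gab2 was called (-0.76), with Inpp5d at 0.29, Sos1 at -0.41 and Pik3r1 at -0.20.

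Of 12 regulators of Il7r and Flt3, 1 was higher and 5 were lower in Rescue than in KO. Tcf3, which encodes the E proteins of early B cells, was higher (140 and 56.7 TPM, log2 difference 1.30). Ikzf3 (-1.75), Hoxa9 (-0.63) and Runx1 (-0.58) led those that were lower, and the median was -0.22. These 4 genes were called in the same direction after correction for GC content, Tcf3 with 0.73. Of 14 other haematopoietic cytokine receptors tested, 6 were lower and none higher, led by Csf2rb (23.2 and 104 TPM, -2.13), Csf2rb2 (-1.89) and Il5ra (-0.92), receptors of myeloid cytokines, with a median of -0.30, and 4 were lower after correction for GC content (Il5ra, with -0.67, was not called). Of the ligands, Il7 and Tslp did not pass the filter, Kitl was not called, and Flt3l was lower in Rescue (6.73 and 21.4 TPM, -2.09, adjusted p = 0.0380).

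Markers of some other cell types moved with the Rescue group too. Their counts in Rescue against KO stand beside 8.58% of all genes called higher and 19.3% called lower. After the GC correction these shares were 6.22% and 10.3%. In Rescue against KO, 3 of 5 natural killer genes were lower (summed level 241 to 289 TPM in Rescue and 407 to 625 TPM in KO), as were 4 of 4 tested genes of group 2 innate lymphoid cells (42.1 to 66.3 and 87.3 to 112 TPM). Of the group 2 markers that did not pass the filter, Areg was at 0 in all 12 libraries, Il13 was at 0 in KO and Rescue, and Il5 and Klrg1, at 0 in Rescue, averaged 0.07 and 0.49 TPM in WT and 0.53 and 0.57 TPM in KO. Of 6 mature B and plasma cell genes tested, 5 were lower in Rescue and Sdc1 was higher. The summed level of that list was 822 to 1535 TPM in WT, 1564 to 3347 TPM in KO and 214 to 361 TPM in Rescue, and Jchain, which encodes the joining chain of secreted antibodies, was at 1369 to 3110 TPM in KO and 1.18 to 195 TPM in Rescue. C1qa and C1qc were higher among 6 macrophage genes, whose sum was 7.65 to 11.8 TPM in KO and 15.8 to 277 TPM in Rescue. Of 5 plasmacytoid dendritic genes tested, Cox6a2 and Irf8 were higher and Ccr9 was lower (sums of 482 to 584 TPM in KO and 726 to 801 TPM in Rescue). With the GC correction, calls were lost for the natural killer gene Gzma (-0.99, from -1.20 before), C1qa (2.44, from 2.92), Ccr9 (-0.56, from -0.75), the group 2 gene Icos (-0.40, from -0.64) and Irf8 (0.16, from 0.36). That left 2 natural killer genes and 3 group 2 genes lower, C1qc and Cox6a2 higher, and the mature B and plasma counts as before. Of the remaining lists in Rescue against KO, no gene was called among 3 T cell, 6 eosinophil and 5 erythroid genes tested, and of 9 neutrophil and monocyte genes Mpo was lower (191 and 131 TPM in KO and Rescue), with or without the correction. Their part in these results was not tested.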

How the data were processed

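Poly(A)+ libraries of sorted CLPs were made by the authors with the CATS RNA-seq kit v2 and sequenced as paired ends. Per the labels and the study's methods, reads were trimmed with cutadapt, mapped to mm10 with TopHat2 2.1.1 and counted with featureCounts against GENCODE vM9; strand and multi-mapping settings are not given in the sources used here. The authors deposited 1 table of TPM (counts per transcript length, each library with 1 fixed sum) for 12 libraries. TPM carries no depth, but reads were recovered from the spacing of low values, and 99.9% of values above 0 were whole within 0.02 for use in 1 alternative. The totals leave out 9 tested genes that could not be recovered. The genes with recovered reads held 94.4% to 95.9% of the TPM of a library, so the totals are short by the rest.

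Groups came from the sample titles. The 14479 genes whose TPM averaged 1 or more over the 12 libraries were tested on log2(TPM + 1) with limma 3.58.1 in R 4.3.3 (trend, 3 groups in 1 fit), and p-values were adjusted by Benjamini-Hochberg over all of them, with a threshold of 0.1, as in the study. This log scale understates changes of low genes. The p-values measure the spread between these libraries; replicate numbers come from the titles. Log2 ratios were tested by exact permutation. GC content was that of the longest protein-coding transcript in GENCODE vM1, joined by gene ID for 11713 of 14479 genes (80.9%), and the correction used a natural spline with 4 degrees of freedom. The fit and the correction were tested on simulated data. Symbols, coordinates and promoters came from RefSeq (GRCm38.p6); 13086 tested genes had a symbol. The named genes were the 10 genes, Firre, Stat5a, up to 3 called genes per list and direction with the largest change, and the 5 genes most like Il7r and Flt3; Vpreb1, Prss34, Rag1 and other marker genes were named after their values were seen. The genes and lists were chosen with earlier results of these data known. Of the listed genes, 2 are not reported here. Markers not found by symbol were Ighd, Siglecf, Hbb-bs and Hbb-bt. Alternatives were pseudocounts of 0.1 and 5, no filter and a mean TPM of at least 5, 3 rescalings, 2-group fits, no trend, a threshold of 0.05, limma-voom on recovered reads (totals scaled by the median ratio), a replicate block, the range of library numbers, each library left out and, added after seeing the data, correction for GC content.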

Additional observations from a re-analysis of the deposited data

Results flagged for a closer look

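Among 35 sets of 4 libraries examined (the 10 genes, Stat5a and Firre in each group, without Firre in KO), 1 held a library apart from the other three, where chance gives 1.75. Ly6d in KO replicate 8 was 9.10 on the log2(TPM + 1) scale, or 547 TPM, and the other KO libraries lay between 8.84 and 8.87. Without that library the Ly6d call in Rescue against KO was kept.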

How the results depend on the processing

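Correction for GC content was chosen after seeing the data. Over 11713 genes, Rescue against KO had 3753 calls before it and 1930 after it, and Rescue against WT had 3339 and 2400. Calls in Rescue against KO numbered 2682 at an adjusted p of 0.05, against 4043 as reported. Calls in Rescue against WT numbered 2263 when only those 2 groups were fitted, against 3512. With rescaling by the median ratio, higher and lower calls were 1889 and 1875 in Rescue against KO (1242 and 2801 as reported) and 1288 and 1256 in Rescue against WT (698 and 2814). In KO against WT, 3 genes were called as reported, 6 without a filter, 1 when only those groups were fitted, 1 with the range of library numbers as a term, and 0 in limma-voom (Firre, at 0 in KO, had an adjusted p of 1.0 there), after GC correction and after GC correction with the replicate block. The GC-corrected fits held only the 11713 genes with a GC value. Firre, the 1 gene called lower in KO as reported, has no GC value and was not in them. The fall to 0 after GC correction therefore cannot be put down to the correction alone. Leaving out 1 library in turn gave 1 to 5 calls in KO against WT, 2820 to 4460 in Rescue against KO and 2670 to 4349 in Rescue against WT.

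Limma-voom was first run with trimmed-mean scaling factors, which also called Flt3 in Rescue against KO and did not call Il2rg in Rescue against WT; the values given use the median ratio.

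The replicate numbers 8 and 11 are shared by WT and KO only. Same-numbered libraries did not deviate together (r of -0.03 and -0.04), and with the replicate block 3 genes were called, as without it.

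Signs that turned belonged to values that were not called as reported, except Crlf2 in Rescue against KO (-0.12 after GC correction). With rescaling by the median ratio, KO against WT was 0.052 for Il7r, 0.039 for Flt3 and 0.0033 for Jak1, Rescue against KO was 0.066 for Il7r, and Rescue against WT was 0.118 for Il7r and 0.050 for Stat5a. With quantile normalization, Il7r in KO against WT was 0.0087 and Stat5a in Rescue against WT 0.053. Without immunoglobulin, mitochondrial, ribosomal protein and haemoglobin genes, KO against WT was 0.028 for Il7r and 0.015 for Flt3, and Il7r was 0.0026 and 0.031 in Rescue against KO and against WT. In limma-voom, KO against WT was 0.059 for Il7r, 0.046 for Flt3 and 0.0046 for Jak1, Il7r was 0.062 and 0.120 in Rescue against KO and against WT, and Stat5a was 0.060 in Rescue against WT. After GC correction, with or without the replicate block, Crlf2 in KO against WT was 0.014. In Rescue against KO, Il7r was 0.23, Jak3 -0.12 and Stat5a -0.17 after it, and in Rescue against WT Il7r was 0.12, Crlf2 -0.11 and Jak3 -0.21. The cause of these shifts was not tested.

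Leaving out 1 library gave -0.127 to 0.063 for Il7r and -0.083 to 0.055 for Flt3 in KO against WT. In Rescue against KO it gave -0.134 to 0.055 for Il7r, -0.0079 to 0.143 for Flt3, -0.081 to 0.070 for Ly6a and -0.011 to 0.159 for Stat5a. In Rescue against WT it gave -0.039 to 0.137 for Flt3, -0.030 to 0.333 for Jak3 and -0.028 to 0.167 for Stat5b.

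For the ratios, leaving out a library allows a smallest exact permutation p of 0.0571, and the calls of the comparisons that held it were lost. The log2 differences then ran from -0.52 to -0.36 and from -0.38 to -0.25 for Kit to Il7r, from 1.28 to 1.56 and from 1.17 to 1.43 for Ly6d to Il7r, and from -1.25 to -0.96 and from -1.16 to -0.84 for Il2rg to Crlf2, in Rescue against KO and against WT. In KO against WT they ran from -0.081 to 0.085 for Flt3 to Il7r, from -0.245 to 0.022 for Ly6d to Il7r, from -0.050 to 0.271 for Il2rg to Crlf2 and from -0.075 to 0.075 for Stat5b to Stat5a. With GC correction, on log2(TPM + 1), 5 tests in place of 6 reached the smallest p and no ratio was called: Rescue against KO and against WT gave -0.59 and -0.44 for Kit to Il7r, 0.97 and 1.02 for Ly6d to Il7r and -0.14 and -0.37 for Il2rg to Crlf2. Stat5b to Stat5a in Rescue against KO newly reached the smallest p, with 0.43 against 0.23 as reported. Signs turned for Flt3 to Il7r (0.059 in KO against WT, -0.121 in Rescue against KO and -0.062 in Rescue against WT), Jak3 to Jak1 (0.049, -0.059 and -0.010 in the same order), and, in KO against WT, Ly6d to Il7r (0.052) and Il2rg to Crlf2 (-0.24). Among the 10 genes Ly6a had the fewest reads in a library (102) and so the most counting error there.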
